A study of Mus musculus with 2 samples.

Results

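The cells described here were type 1 conventional dendritic cells from mouse tumors, compared between a subcluster that carried the transcripts of dividing cells and a larger subcluster of the same type. They came from the cluster that the authors' deposited annotation marks by Xcr1, which held 450 of the 5976 cells of the series. Cells of subcluster 11 at the authors' resolution of 0.8 were taken as cycling and cells of subcluster 6 as resting. After 1 cell without a hashtag was left out, there were 81 cycling cells (37 in mouse 1, 18 in mouse 2 and 26 in mouse 3) and 368 resting cells (147, 71 and 150). Subcluster 11 had 129 cells in all, of which 44 belonged to the cluster marked by Ifitm1 and 3 to the cluster marked by Pdcd1, and those were not counted as members.

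The study sorted leukocytes positive for CD45, the common leukocyte antigen, and for JAML, a junctional adhesion molecule-like receptor, from tumors of 3 mice, and profiled them with 10x Genomics 5′ v2 chemistry. All cells shared 1 library, and antibody hashtags, each taken as 1 mouse, told the mice apart. The hashtag names place every mouse in the isotype control arm of a B16F10 tumor experiment, B16F10 being an established mouse melanoma line, so the series holds 1 group and no treatment comparison. Strain, age and sex of the mice were not given in the sources used here. The labels describe the sorted cells as T cells, whereas the cells of this cluster carried dendritic cell transcripts, with T cell transcripts at low levels.

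Type 1 conventional dendritic cells take up material from dying cells and present its antigens on class I molecules to CD8 T cells, a process called cross-presentation, and they depend on the transcription factors Irf8 and Batf3. Their marker Xcr1 is the receptor for the chemokine Xcl1, made by natural killer and CD8 T cells. They arise from bone marrow precursors that still divide, and some conventional dendritic cells also divide after reaching a tissue. A dividing cell first licenses its replication origins and copies its DNA in S phase, while histone genes are switched on to package the copies. It then makes the kinesins, kinetochore proteins and cyclins of mitosis, most of which are destroyed again as the cell divides.

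The subclusters stood apart in Mki67 and had nearly the same share of cells with Xcr1. Mki67, on chromosome 7 from 135689784 to 135716450 (GRCm38.p6), encodes the Ki-67 protein that coats chromosomes in mitosis. Xcr1 lies on chromosome 9 from 123852315 to 123862029. To compare shares at equal depth, each cell was thinned to 18712 unique molecular identifiers (UMIs, counted RNA molecules), which left out 7 cycling and 38 resting cells as too shallow. An Mki67 UMI was found in 98.6% of 74 cycling cells and 23.6% of 330 resting cells (98.8% and 27.4% before thinning). Top2a, a topoisomerase that untangles replicated DNA, was found in 81.1% and 17.3%.

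Xcr1 was detected in 90.5% of the cycling and 90.6% of the resting cells, and Clec9a, the receptor for exposed actin on dead cells, in 90.5% and 93.6%. In 74 equally thinned cells of the cluster marked by Cd3g, a chain of the T cell receptor complex, each of the 2 genes was found in 4.05%, a level for cells that should lack them. Over all cells of that cluster, unthinned, the shares were 1.03% for Xcr1 and 1.34% for Clec9a. Median depth before thinning was 34089 UMIs in cycling cells, 26971.5 in resting cells and 8888 in the Cd3g cluster, of which 1870 cells were left out. Mki67 was found in 37.8% of those 74 T cells, the deepest of the cluster, and in 7.92% of all its cells unthinned. T cells can divide themselves and give no clean background for a division gene. Jaml, the receptor used for the sort, was detected in 97.3% of cycling, 97.6% of resting and 79.7% of the T cells.

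Cycling cells made up 20.1% of the type 1 dendritic cells in mouse 1 (37 of 184), 20.2% in mouse 2 (18 of 89) and 14.8% in mouse 3 (26 of 176), a mean of 18.4% ± 3.11 (SD, n = 3 mice). Over all cells the share was 18.04%, with an exact 95% binomial interval of 14.6% to 21.9% that covers counting error only. Cycling cells were deeper, with median UMIs of 33187, 34068.5 and 34216 in the 3 mice against 28420, 25326 and 25823 in resting cells. No cell in the deposited table had more than 5999 genes, and 13.6% of cycling against 3.80% of resting cells had over 5500, so cells of the highest gene counts are not represented. Cells with at least 2 UMIs of genes from another lineage made up 35.8% of cycling (29 of 81) and 31.8% of resting cells (117 of 368).

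The name "resting" did not hold for all cells of subcluster 6. Counting the UMIs of 50 genes of origin licensing and the replication fork in each thinned cell, the median was 47 in cycling and 11 in resting cells. Of the 330 thinned resting cells, however, 81 (24.5%, exact 95% interval 19.998% to 29.6%) held at least 30 such UMIs, a level reached by 49 of 74 cycling cells. This was found in 42 of 137 cells (30.7%) of mouse 1, 15 of 65 (23.1%) of mouse 2 and 24 of 128 (18.8%) of mouse 3. The threshold of 30 was chosen after the values were seen, and 39 resting cells lay from 20 to under 40 UMIs, so these cells are a range and not a type. They are called the replicating cells of subcluster 6 below, for their transcripts only.

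**Figure D1:**
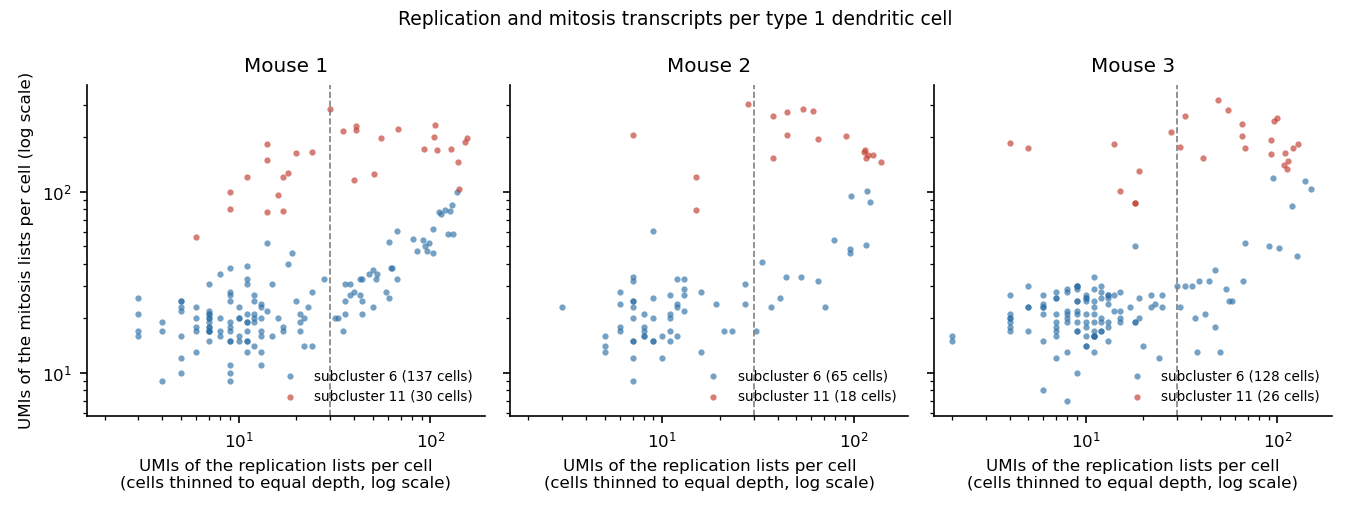
UMIs per cell of the 50 replication genes (horizontal, log axis) and of the mitosis genes, with tubulin genes left out (vertical, log axis). Each point is a thinned cell of subcluster 6 or subcluster 11, with 1 panel per mouse and a dashed line at 30 replication UMIs. In each mouse the cells of subcluster 6 form an arm toward high replication counts (24.5% of cells in all) that stays below most cells of subcluster 11 in mitosis counts.

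The replicating cells of subcluster 6 had replication transcripts with few of histones and, in most cells, fewer of mitosis than subcluster 11. Their median UMIs were 59 for the replication genes, 34 for the mitosis genes and 3 for the clustered histones. The mitosis genes are those of the spindle, kinetochore, chromosome condensation and mitotic exit lists, with tubulin genes left out of the count. The other 249 cells of subcluster 6 had medians of 9, 20 and 4, and the cycling cells 47, 172 and 70.5. The replicating cells were not free of division markers, with an Mki67 UMI in 40.7% and a Top2a UMI in 49.4%, against 18.1% and 6.83% of the other cells. The 90th percentile of their mitosis UMIs was 83 (29 in the other cells), inside the range of subcluster 11, which began at 56. Histone UMIs were therefore as low in the replicating cells of subcluster 6 as in the rest of that subcluster, and high in subcluster 11. The 49 cycling cells with at least 30 replication UMIs had medians of 93, 188 and 93, whereas the other 25 had 15, 121 and 19. Within subcluster 11, cells low in replication transcripts were therefore also low in histone transcripts, while most of their mitosis transcripts were still there.

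Sums of the thinned UMIs per mouse, in counts per 1000000 UMIs (CPM), gave the same picture gene by gene. Mcm2 and Mcm6, subunits of the replicative helicase, were chosen after their values were seen. Mcm2 was at 5.06, 5.34 and 5.65 CPM in the low cells of subcluster 6, at 107, 121 and 111 in its replicating cells, and at 23.2, 35.6 and 34.9 in the cycling cells. Mcm6 was at a mean of 18.4 ± 5.82, 229 ± 22.4 and 94.2 ± 11.95 CPM in the same order (SD, n = 3). Both helicase genes were highest in the replicating cells of subcluster 6, in each mouse. Because these cells were picked on replication genes, the values are given without a test. No such pick was made in subcluster 11, where 25 of 74 thinned cells held under 30 replication UMIs. The ranking therefore sets picked cells against unpicked ones, and the cycling cells at or above 30 were not taken apart for these genes.

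Other replication genes were highest in subcluster 11. Pclaf, which binds the sliding clamp PCNA, was at 6.49 ± 2.58 CPM in the low cells, 210 ± 20.1 in the replicating cells of subcluster 6 and 705 ± 63.8 in the cycling cells. Rrm2, the subunit of ribonucleotide reductase that limits the supply of deoxynucleotides, was at 0.731 ± 0.634, 66.2 ± 29.7 and 208 ± 34.0 CPM. The replication-dependent histone gene Hist1h2ap was at 19.3 ± 0.880, 29.99 ± 2.86 and 1166 ± 201 CPM. Cenpf, a kinetochore protein, had 0 CPM in the replicating cells of all 3 mice and 98.0, 187 and 115 CPM in the cycling cells.

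Genes outside the replication lists also separated the 3 classes. Ccnd1, the D-type cyclin that carries growth signals to the cell cycle, was at 371 ± 29.3 CPM in the low cells, 525 ± 121 in the replicating cells and 253 ± 27.7 in the cycling cells. Ccne1, the E-type cyclin of S phase entry, was at 3.39 ± 0.778, 23.9 ± 12.5 and 39.1 ± 9.62 CPM. Btg1, an antiproliferative factor of quiescent cells, was at 861 ± 90.8 CPM in the low cells and lower in both other classes, at 449 ± 43.4 and 476 ± 80.1. The class II chain H2-Eb1 followed Btg1, at 9189 ± 509, 6684 ± 534 and 6806 ± 454 CPM, with every mouse of the low cells above every mouse of the other classes. Trib1, a pseudokinase, was at 139 ± 29.7, 97.5 ± 15.6 and 33.5 ± 19.9 CPM, lowest in the cycling cells.

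**Figure D2:**
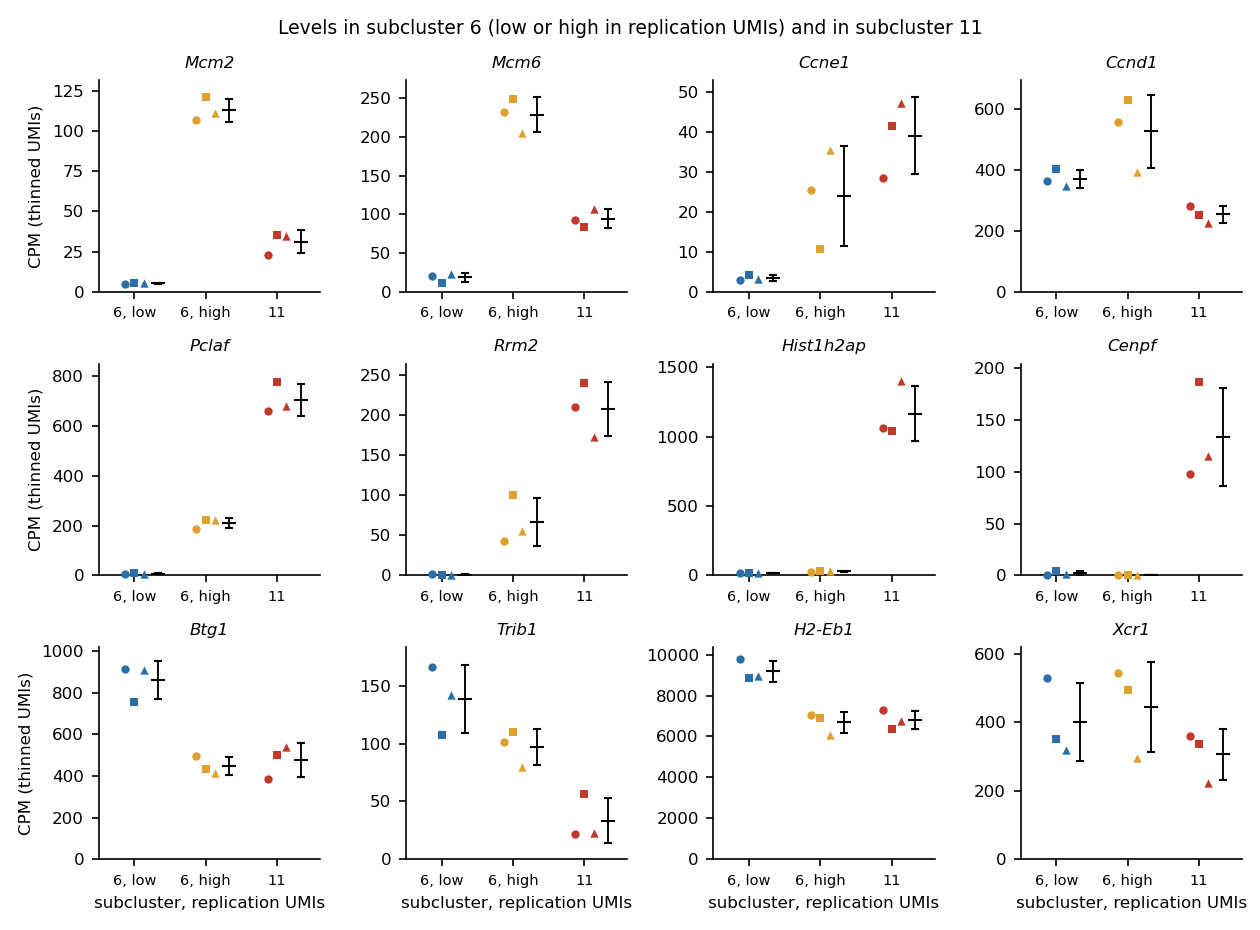
Levels of 12 genes in CPM of thinned UMIs (vertical axis from 0) in cells of subcluster 6 below and at or above 30 replication UMIs and in subcluster 11; circles, squares and triangles are mice 1, 2 and 3, and bars are the mean ± SD. Mcm2 is highest in the high cells of subcluster 6 (mean 113 CPM against 31.2 in subcluster 11, which was not split). Hist1h2ap and Cenpf are high only in subcluster 11 among the 3 classes.

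The following comparison is of whole subclusters as the authors formed them, so its resting side includes the replicating cells. UMIs were summed per mouse and subcluster, giving 1132318, 630853 and 890163 UMIs for cycling and 4233495, 1888619 and 3867954 for resting cells. A sum cannot tell fewer cells with a transcript from less of it per cell. The levels are shares of all UMIs, and cycling cells held more UMIs per cell (medians of 34089 against 26971.5). A lower share is therefore not by itself fewer molecules per cell. Of 7941 genes tested, 10.1% were higher in cycling cells (803 genes) and 6.31% lower (501 genes) at an adjusted p under 0.05 in edgeR's quasi-likelihood test paired by mouse. The authors formed the subclusters from the expression of these cells, so an adjusted p here says how steady a difference was over the 3 mice and is no independent test. Outside 11 lists of division genes, 587 genes were higher and 498 lower among 7688, with a median log2 difference of -0.05.

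The division genes are described without a p, since they set the subclusters apart. Of 253 tested members of the 11 lists, 241 had a positive log2 difference, with a median of 2.37, where the median over all genes tested was -0.03. In 221 of them every cycling sum was above every resting sum, as was the case for 18% of all genes. The mitotic lists had the larger medians: 4.65 for 27 kinesin and spindle genes, 4.26 for 18 genes of mitotic exit and cytokinesis, 3.72 for 29 kinetochore and checkpoint genes and 3.60 for 19 genes of chromosome condensation. The medians of the replication lists were 1.01 for 19 licensing genes, 0.96 for 29 fork genes and 0.45 for 20 genes of nucleotide synthesis. The 26 tested clustered histones had a median of 4.07 and were all positive.

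Mki67 was at 252, 447 and 361 CPM in the cycling cells of mice 1, 2 and 3 and at 20.1, 39.7 and 26.9 CPM in the resting cells. Top2a was at 322, 488 and 503 against 27.2, 32.3 and 23.3 CPM. For both, the lowest cycling sum was above the highest resting sum, and the log2 differences were 3.62 ± 0.11 and 3.96 ± 0.14 (SE, n = 3 pairs). Birc5, or survivin, of the chromosomal passenger complex, was at 450, 469 and 476 against 11.8, 14.8 and 10.9 CPM, a log2 difference of 5.24 ± 0.12. Its cycling sums lay closer together than those of Mki67.

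Of the replication genes, Dbf4, the activating subunit of the kinase that fires licensed origins, was at 91.8, 77.7 and 84.3 CPM in cycling and 14.4, 10.1 and 9.05 CPM in resting cells, a log2 difference of 2.90 ± 0.18. Mcm7 was at 83.0, 117 and 128 against 47.7, 54.0 and 32.3 CPM, a difference of 1.29 ± 0.19, and Gmnn, which blocks a second licensing, was at 138, 204 and 143 against 69.4, 62.5 and 40.6 CPM. These 2 did not overlap between groups but stood much closer than the mitotic genes. Fen1, which trims Okazaki fragments, differed by 1.32 ± 0.15 and Dut, which keeps uracil out of DNA, by 1.37 ± 0.12. Mcm2, in contrast, was at 30.9, 33.3 and 34.8 against 40.2, 33.9 and 24.3 CPM, with overlapping groups.

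Histone and chromatin genes were among the most abundant of the division transcripts. Hist1h2ap was at 1042, 1133 and 1509 CPM in cycling against 23.9, 25.4 and 20.7 CPM in resting cells, a 52.3-fold higher level. The linker histone gene Hist1h1b was at 670, 560 and 1169 against 25.3, 18.5 and 23.3 CPM. In both, mouse 3 had the highest cycling sum. Hmgb2, a chromatin-bending protein, was at 2807, 3112 and 2668 against 345, 356 and 277 CPM, a log2 difference of 3.13 ± 0.07. Replication-dependent histone messages largely lack a poly(A) tail and histone genes are near copies of one another, so single histone genes are uncertain in a poly(A)-based library.

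In mitosis, Ccna2 (cyclin A2) was at 145, 189 and 137 CPM in cycling and 1.65, 3.71 and 3.88 CPM in resting cells, a 50.3-fold higher level. Cdc20, which activates the anaphase-promoting complex, was at 147, 114 and 101 against 2.36, 2.65 and 2.07 CPM, 51.3-fold higher. The resting sums of these genes were a few CPM in every mouse, and the groups were far apart. Cenpf had the widest gap of those shown here, at 98.0, 178 and 128 against 0.472, 3.18 and 1.55 CPM, with 14 UMIs in all resting cells. Kif11, the motor that pushes spindle poles apart, was at 72.4, 149 and 158 against 2.83, 4.77 and 4.91 CPM, lower in mouse 1 than in the others on both sides. Racgap1, of the central spindle in cytokinesis, was at 140, 157 and 145 against 6.38, 9.53 and 8.27 CPM.

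Promoters of replication and mitosis genes are known to be read by different regulators: E2F factors act on the former, and the DREAM and MuvB complexes on the latter through the CHR element, often beside a CCAAT box. In RefSeq promoters (GRCm38.p6, 250 bases before to 50 after the start, both strands), an E2F motif (TTTCGCGC, TTTGGCGC, TTTCCCGC or TTTGCCGC) was present in 37.5% of 48 promoters of the replication lists (39 of 50 genes matched). It was present in 11.2% of 89 promoters of the mitosis lists (80 of 93 genes matched) and 2.26% of 32851 promoters of all genes. The CHR letters TTTGAA were present in 18.8%, 64.0% and 17.9% in the same order. CCAAT was present in 58.3%, 68.5% and 37.4%, and both together in 8.33%, 49.4% and 6.95%. No histone symbol matched the table, and 0 of 20 promoters of the type 1 dendritic cell identity list held the E2F motif. A match is a run of letters and no measured binding.

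Stretches of 60 bases upstream of the start show the motifs in context. They were picked for holding a match, from the top of their lists downward in log2 difference, which reached genes near the median for replication (1.01 for Mcm5). They are printed 5′ to 3′ on the strand of the gene, with the letters of every match on either strand in capitals, and in Mcm5 a pair of overlapping E2F matches runs together. Pola1 (catalytic subunit of DNA polymerase alpha, chrX:93632260-93632319, minus strand), Rfc3 (clamp loader, chr5:151651209-151651268, minus) and Mcm5 (helicase, chr8:75109330-75109389, plus) hold an E2F motif. Cdc20 (chr4:118437344-118437403, minus) and Kif11 (chr19:37376322-37376381, plus) hold the CHR letters and CCAAT, in one orientation or the other, and Kif2c (a kinesin that dismantles microtubules, chr4:117178843-117178902, minus) holds the CHR letters alone.
Pola1: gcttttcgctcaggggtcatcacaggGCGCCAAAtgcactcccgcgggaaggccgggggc
Rfc3: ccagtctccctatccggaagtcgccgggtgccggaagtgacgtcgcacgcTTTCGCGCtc
Mcm5: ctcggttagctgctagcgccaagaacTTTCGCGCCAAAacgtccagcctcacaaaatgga
Cdc20: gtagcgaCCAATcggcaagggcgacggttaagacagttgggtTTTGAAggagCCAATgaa
Kif11: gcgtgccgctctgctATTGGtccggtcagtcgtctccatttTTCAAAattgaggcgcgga
Kif2c: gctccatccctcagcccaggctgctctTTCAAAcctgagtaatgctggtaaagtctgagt
Mcm5, the E2F example, was at 81.2, 116 and 113 CPM in cycling and 62.8, 53.5 and 35.7 CPM in resting cells, while at equal depth it was at 136 ± 11.5 CPM in the replicating cells of subcluster 6. Kif11 and Cdc20, the CHR examples, were at 9.29 ± 4.92 and 4.37 ± 0.767 CPM in those cells against 115 ± 36.1 and 125 ± 15.6 CPM in subcluster 11.

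Of 20 tested inhibitors of the cell cycle, 3 were higher and 3 lower in cycling cells, where 10.1% and 6.31% of all genes were, and the median log2 difference was -0.14. With so few members the count says little about the list, and its genes are given singly. Cdkn2d, an INK4 inhibitor of the kinases that pair with D cyclins, was at 207, 246 and 215 CPM in cycling and 34.3, 38.7 and 58.9 CPM in resting cells. Its groups did not overlap, and it rose by 2.32 ± 0.16 on the log2 scale (adjusted p = 5.1e-07). Cdkn2c, another INK4 inhibitor, was at 59.2, 77.7 and 50.6 against 8.74, 5.82 and 11.9 CPM and rose by 2.70 ± 0.26 (adjusted p = 1.4e-05). At equal depth Cdkn2d was at 45.3 ± 16.5 CPM in the low and 38.8 ± 0.854 CPM in the replicating cells of subcluster 6, against 214 ± 56.4 CPM in subcluster 11.

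Btg1 was at 402, 491 and 546 CPM in cycling and 771, 656 and 815 CPM in resting cells. The groups did not overlap, and its log2 difference was -0.66 ± 0.10 (adjusted p = 0.00044). Mxd4, an antagonist of MYC, was lower by a log2 difference of -1.28 ± 0.27 (adjusted p = 0.0057, and 0.0526 without mouse 1), whereas its family member Mxd3, known from S phase, was at 65.4, 88.8 and 71.9 CPM against 1.65, 1.59 and 1.03 CPM. The inhibitors p21 and p27 did not pass: Cdkn1a differed by 0.30 ± 0.20 (adjusted p = 0.35) and Cdkn1b by -0.14 ± 0.13 (adjusted p = 0.51).

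Among D cyclins, MYC and growth signals, 1 of 19 tested members was higher and 2 were lower, with a median of -0.20, shares near those of all genes (10.1% higher and 6.31% lower). Ccnd1 was at 256, 233 and 225 CPM in cycling and 427, 460 and 347 CPM in resting cells. All cycling sums were below all resting sums, and the log2 difference was -0.78 ± 0.09 (adjusted p = 7.9e-05). Flt3, the receptor for the growth factor of dendritic cells, was at 132, 143 and 148 against 181, 194 and 187 CPM, a difference of -0.42 ± 0.10 (adjusted p = 0.010) that did not pass without mouse 1 or without mouse 2. Cdk4 was the gene that rose, by 0.64 ± 0.14 (adjusted p = 0.0080), and did not pass without mouse 2. Myc was low on both sides, at 13.2, 23.8 and 14.6 against 20.1, 22.2 and 14.2 CPM (adjusted p = 0.66).

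The identity genes of type 1 dendritic cells were kept and, as shares of UMIs, on the whole somewhat lower in cycling cells. Of 23 tested members, 12 were lower and 0 higher, where 6.31% and 10.1% of all genes were, and the median log2 difference was -0.39. With mouse 1, 2 or 3 left out 4, 6 and 8 were lower, with medians of -0.26, -0.39 and -0.45, and DESeq2 called 4. Xcr1 was at 350, 319 and 218 CPM in cycling and 535, 387 and 308 CPM in resting cells. It was lower in each mouse, though the groups overlapped, because the mice differed in level on both sides, and its log2 difference was -0.48 ± 0.09 (adjusted p = 0.0032 with mice as a block and 0.11 without). Snx22, a sorting nexin, was at 53.9, 61.8 and 61.8 against 91.9, 110 and 98.2 CPM, with no overlap and a log2 difference of -0.76 ± 0.13 (adjusted p = 0.0013). Ppt1, a lysosomal thioesterase, was at 442, 404 and 421 against 737, 612 and 596 CPM, a difference of -0.63 ± 0.08 (adjusted p = 0.00013).

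Cadm1, an adhesion molecule of these cells, was at 51.2, 33.3 and 34.8 against 102, 65.7 and 49.6 CPM. It was lower in each mouse with overlapping groups (-0.86 ± 0.16, adjusted p = 0.0025), and did not pass without mouse 1 (0.0522) or in DESeq2 (0.0503). Clec9a (-0.20 ± 0.09, adjusted p = 0.18) and the integrin chain Itgae, or CD103 (-0.39 ± 0.16, adjusted p = 0.12), did not pass. Jaml was at 443, 311 and 352 CPM in cycling and 389, 338 and 321 CPM in resting cells, higher in mice 1 and 3 and lower in mouse 2 (0.07 ± 0.09, adjusted p = 0.67).

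Of 27 tested transcription factors of dendritic cells, 1 was higher and 4 were lower, where 10.1% and 6.31% of all genes were. With so few genes called, the count says little about the list. Batf3 was at 231, 315 and 240 CPM in cycling and 225, 286 and 254 CPM in resting cells, and the groups overlapped fully (0.02 ± 0.09, adjusted p = 0.91). Irf8 was at 2147, 1969 and 1834 against 2373, 2232 and 2096 CPM, a small difference of -0.18 ± 0.05 (adjusted p = 0.039) that did not pass when any 1 mouse was left out. Rbpj, the nuclear partner of Notch, was at 162, 166 and 177 against 276, 258 and 254 CPM, without overlap (-0.65 ± 0.09, adjusted p = 0.00046). Cbfb, the partner of the Runx factors, was the gene that rose, at 107, 85.6 and 98.9 against 61.4, 54.5 and 56.1 CPM (0.76 ± 0.12, adjusted p = 0.0011).

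**Figure D3:**
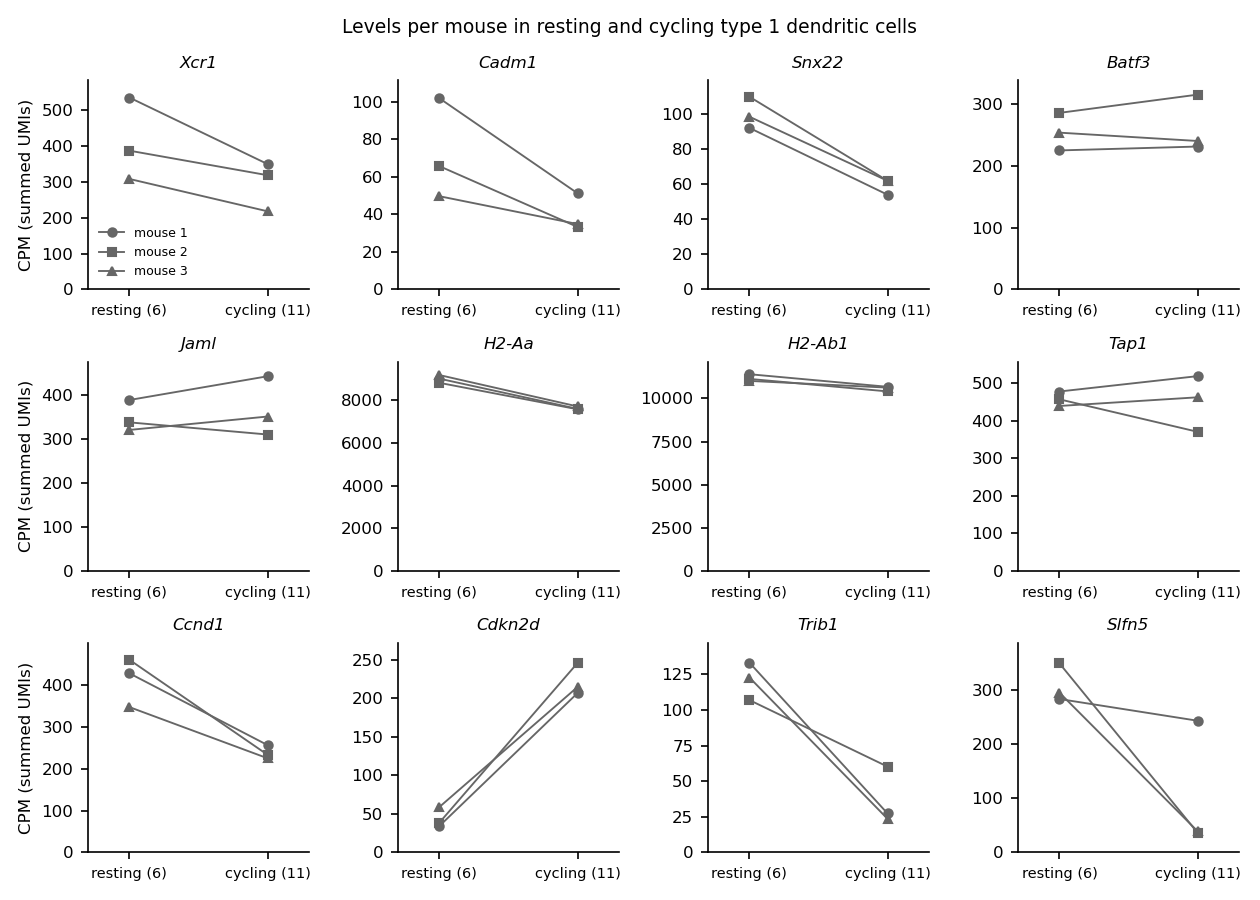
Levels of 12 genes in CPM of summed UMIs (vertical axis from 0) in resting (subcluster 6) and cycling (subcluster 11) cells, with a line joining the values of each mouse. Xcr1, Cadm1, Snx22, H2-Aa, Ccnd1 and Trib1 are lower in the cycling cells of each of 3 mice and Cdkn2d is higher, Batf3, Jaml and Tap1 differ in direction between mice, and Slfn5 is near 244 CPM in mouse 1 but under 40 in the others.

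The branches of antigen presentation had different counts, a contrast that was not tested. Of 13 tested class II genes, 7 were lower and 0 higher (median -0.36), where 6.31% and 10.1% of all genes were. Of 23 class I genes, 4 were higher and 0 lower (median 0.03). The class II count was 8, 4 and 9 without mouse 1, 2 and 3, and the class I count 2, 3 and 4. In the gate on Mki67 and Top2a described below, 0 class I genes were higher and 4 lower. H2-Eb1 was at 7316, 6266 and 6553 CPM in cycling and 8821, 8432 and 8311 CPM in resting cells, without overlap and by a log2 difference of -0.36 ± 0.04 (adjusted p = 0.00015). H2-Aa was at 7591, 7572 and 7704 against 9006, 8810 and 9174 CPM (-0.25 ± 0.04, adjusted p = 0.0012, and 0.0611 without mouse 2). H2-Ab1, the chain that pairs with it, was at 10675, 10408 and 10627 against 11404, 11132 and 11017 CPM and did not pass (-0.09 ± 0.04, adjusted p = 0.13). The class II genes thus remained among the most abundant transcripts on both sides.

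Ctss, the protease that trims the invariant chain, was at 419, 379 and 352 against 574, 595 and 563 CPM (-0.60 ± 0.08, adjusted p = 0.00029), and H2-DMa, which helps load peptides, differed by -0.42 ± 0.07 (adjusted p = 0.00070). In class I, the genes that were higher were the non-classical H2-Q4, at 139, 91.9 and 101 against 64.7, 51.9 and 53.3 CPM (0.96 ± 0.12, adjusted p = 0.00018), H2-Q6 (0.85 ± 0.13, adjusted p = 0.00068), H2-Q7 (0.45 ± 0.10, adjusted p = 0.0062) and the immunoproteasome subunit Psmb9 (0.21 ± 0.06, adjusted p = 0.043). The H2-Q genes are near copies, so reads could be split among them, and H2-Q7 and Psmb9 did not pass in several alternatives. Tap1, the peptide transporter, was at 519, 371 and 463 against 478, 457 and 440 CPM (-0.03 ± 0.09, adjusted p = 0.85). Of 20 genes of cross-presentation and endosomes, 2 were lower and 0 higher, close to the 6.31% of all genes that were lower.

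**Figure D4:**
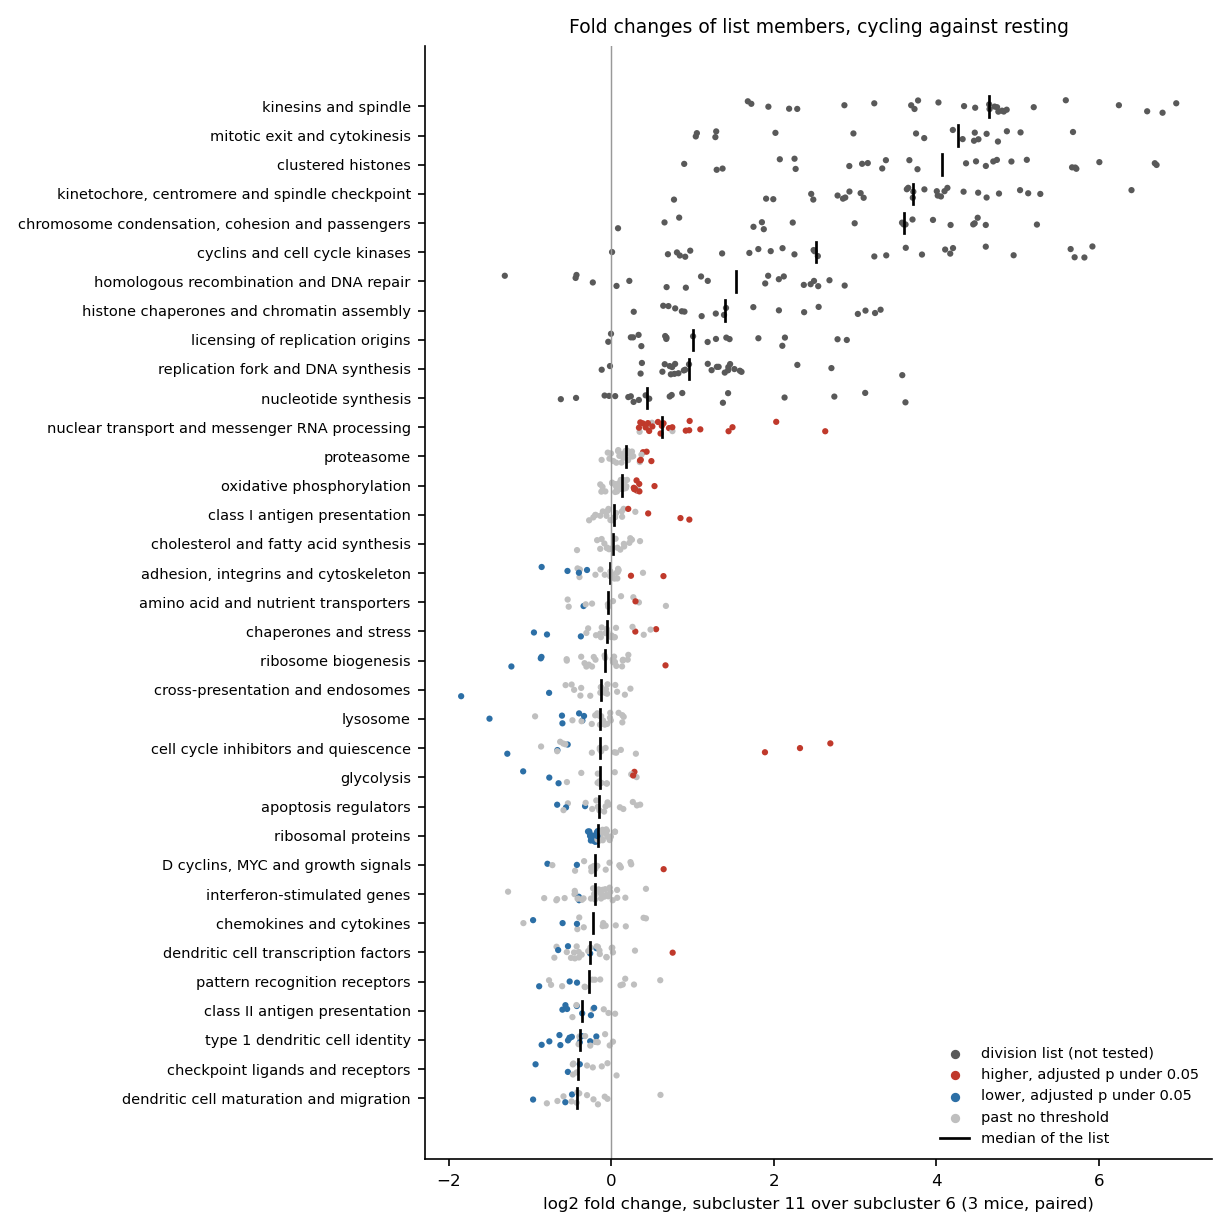
Log2 difference, cycling against resting, of each tested member (points) of the gene lists, with division lists in grey because they are described without a test. Kinesins, kinetochore genes and histones lie far above 0 (medians 4.65, 3.72 and 4.07), nuclear transport and messenger RNA processing is the list outside the division lists with most members higher (21 of 25), and type 1 dendritic cell identity lies mostly below 0 (median -0.39).

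No member of the activation lists was higher in cycling cells past the threshold. Lower were 3 of 16 tested maturation and migration genes (median -0.42), 3 of 12 checkpoint ligands and receptors (median -0.41), 3 of 14 chemokines and cytokines, 3 of 16 pattern recognition receptors and 2 of 37 interferon-stimulated genes, where 6.31% of all genes were lower. The interferon-stimulated genes were thus called at about the share of all genes, and 11 of 35 were called lower without mouse 1. Vsir, or VISTA, an inhibitory receptor, was at 30.9, 31.7 and 38.2 CPM in cycling and 68.3, 59.3 and 61.5 CPM in resting cells, without overlap (-0.93 ± 0.16, adjusted p = 0.0019). Tlr3, the endosomal receptor for double-stranded RNA, was at 105, 136 and 94.4 against 165, 156 and 145 CPM (-0.51 ± 0.12, adjusted p = 0.012), and did not pass without mouse 1. Cd274, or PD-L1, was at 15.0, 1.59 and 31.5 against 22.2, 10.1 and 17.1 CPM and had too few counts to place (-0.05 ± 0.36). Ccr7, the receptor that guides migratory dendritic cells, was too low to be tested, with 4 UMIs in cycling and 93 in resting cells.

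Housekeeping lists moved by small amounts, apart from RNA processing. Of 25 genes of nuclear transport and messenger RNA processing, 21 were higher and 0 lower (median 0.62), where 10.1% and 6.31% of all genes were. Ran, the GTPase that drives nuclear transport and spindle assembly, was at 828, 839 and 793 CPM in cycling and 382, 443 and 328 CPM in resting cells, without overlap (1.10 ± 0.08, adjusted p = 1.1e-06). Rcc1, its exchange factor on chromatin, differed by 2.03 ± 0.21 and the splicing-related Lsm3 by 1.49 ± 0.11. At equal depth Ran was at 275 ± 48.0, 675 ± 67.9 and 823 ± 10.0 CPM in the low cells, the replicating cells and subcluster 11, so the replicating cells stood between.

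Of 34 genes of oxidative phosphorylation, 8 were higher and 0 lower (median 0.14), where 10.1% of all genes were higher and 6.31% lower. Of 30 proteasome genes 5 were higher (median 0.19), a small excess over that share. Psma6 was at 200, 201 and 201 against 133, 158 and 137 CPM. Of 41 ribosomal protein genes, 18 were lower and 0 higher, by small amounts (median -0.17). With mouse 1, 2 or 3 left out, 1, 1 and 4 genes of oxidative phosphorylation, 3, 1 and 5 of the proteasome and 9, 0 and 8 ribosomal protein genes passed, with the same directions. Ribosome biogenesis was mixed, with 1 of 26 higher and 3 lower: Lyar rose (0.67 ± 0.14, adjusted p = 0.0054), Polr1a, the large subunit of RNA polymerase I, was lower (-0.87 ± 0.18, adjusted p = 0.0052), and neither passed in DESeq2. The 18 tested genes of cholesterol and fatty acid synthesis had a median of 0.02. The intermediate filament gene Vim rose, at 1901, 2061 and 1685 against 1136, 1301 and 1149 CPM (0.64 ± 0.06, adjusted p = 1.8e-05).

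Outside the division lists, the genes with the largest differences upward were mostly known division genes that the lists did not hold, such as Pimreg, Shcbp1 and Melk. Melk, a kinase of dividing cells, was at 69.8, 85.6 and 61.8 against 1.65, 3.71 and 3.102 CPM. Downward, Trib1 was at 27.4, 60.2 and 23.6 CPM in cycling and 133, 107 and 122.8 CPM in resting cells, with no overlap (-1.84 ± 0.24, adjusted p = 0.00018). Nr4a1, an immediate early nuclear receptor, was at 52.1, 49.1 and 22.5 against 92.4, 96.4 and 128 CPM (-1.36 ± 0.24, adjusted p = 0.0022). Gcnt2, a glycan-branching enzyme, and Psen2, of the gamma-secretase, differed by -1.48 ± 0.23 and -1.45 ± 0.23 (both adjusted p = 0.00085).

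Slfn5, a Schlafen family gene, was at 244, 36.5 and 39.3 CPM in cycling and 284, 350 and 296 CPM in resting cells. Mouse 1 stood apart: its cycling cells were near its resting cells, whereas those of the other mice were far below. The log2 difference was -1.62 ± 0.40 with all mice (adjusted p = 0.017) and -3.08 without mouse 1, and it did not pass without mouse 2 (adjusted p = 0.14), in DESeq2 (0.13) or in a robust fit (0.40).

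Transcripts of other cell types were also lower in the cycling sums. The summed level of 6 markers of type 2 conventional dendritic cells was 25.4 to 48.3 CPM in cycling and 83.5 to 139 CPM in resting cells. For 6 T cell markers it was 53.9 to 86.5 against 97.3 to 163 CPM, although at equal depth a Cd3g UMI was found in 25.7% of cycling and 25.8% of resting cells (83.8% of the T cells). For 7 plasmacytoid markers it was 379 to 434 against 460 to 678 CPM, most of it from Bst2 (374, 314 and 327 against 460, 398 and 465 CPM), which other cell types also express. Siglech, a defining plasmacytoid lectin, was at 5.30, 1.59 and 5.62 against 43.2, 6.35 and 21.2 CPM. For 8 macrophage and monocyte markers it was 47.6 to 101 against 121 to 126 CPM. The ranges did not overlap in any of these 4 lists. Past the threshold were 3 of 4 tested type 2 markers, 4 of 5 plasmacytoid, 3 of 6 T cell and 1 of 2 macrophage and monocyte markers. All were lower, where 6.31% of all genes were.

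Cd209a, a C-type lectin of type 2 cells, was at 3.53, 1.59 and 6.74 against 15.4, 67.8 and 16.5 CPM, highest in the resting cells of mouse 2 (-2.70 ± 0.47, adjusted p = 0.0016; -1.68 without mouse 2). The T cell receptor gene Trbc2 was at 13.2, 9.51 and 16.9 against 28.8, 52.9 and 28.4 CPM (-1.34 ± 0.28, adjusted p = 0.0058), and did not pass without mouse 2. The B cell gene Cd79a and the macrophage gene Ms4a7 were at 0 UMIs in both. These levels are low beside Xcr1 and H2-Eb1, and the part of such transcripts in the lower genes of the cycling cells was not tested. Leaving out the cells of mixed lineage left mice 1 and 3. There 52 of 98 named genes that had passed still did, beside 55 when mouse 2 alone was left out. Trbc2 (-0.45) and Ccl5 (-0.36) did not pass there. Those cells were picked in part by T cell genes, so the smaller difference of Trbc2 is no test of its source.

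The split into subclusters was then replaced by a gate on 2 genes within the same cells. Thinned cells of subclusters 11 and 6 of the authors' Xcr1 cluster with at least 1 UMI of both Mki67 and Top2a (60 of 74 cells of subcluster 11 and 28 of 330 of subcluster 6) were compared with cells that had neither (1 and 222). Genes of the division lists were left out. Of 6221 genes tested, 8.63% were higher (537 genes) and 8.31% lower (517 genes) in the dividing cells, at an adjusted p under 0.05 in the same edgeR test. Among these 6221 genes, which both comparisons tested, the same 687 passed in both, each with the same sign. They were 71.6% of the 959 that the subclusters called among them and 65.2% of the 1054 that the gate called. The comparisons share most of their cells and counts, so their overlap is no independent support.

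In the gated cells 13 of 23 identity genes were lower and 0 higher (median -0.39), as were 9 of 12 class II genes (median -0.42) and 13 of 31 interferon-stimulated genes (median -0.42), against a median of -0.06 over all genes. Without mouse 1 the identity count was 6 of 23, and DESeq2 called 0 identity and 0 interferon-stimulated genes. Mouse 1 stood apart for the interferon-stimulated genes: the summed level of the 43 measured members was 5470, 3364 and 3259 CPM in subcluster 11 and 4793, 4927 and 5093 CPM in subcluster 6, so it was higher in cycling cells of mouse 1 and lower in those of the others. Ifitm3, a restriction factor of that list, was at 771, 405 and 652 CPM in the gated cells and 575, 1331 and 1469 CPM in cells with neither gene, higher in mouse 1 and lower in the others. Nuclear transport and messenger RNA processing again had 21 of 25 members higher (median 0.77). Of 23 class I genes, 4 were lower and 0 higher here, and of 25 ribosome biogenesis genes 8 were higher and 1 lower. Of 27 transcription factors of dendritic cells, 9 were lower and 1 higher. Among cell cycle inhibitors 7 of 17 were lower and 2 higher, and among D cyclins, MYC and growth signals 5 of 18 and 2. Over all genes 8.31% were lower and 8.63% higher, and DESeq2 called 1, 2 and 0 members of these 3 lists lower. H2-Q4 and H2-Q6, higher between subclusters, had log2 differences of 0.44 and 0.49 in the gated cells and did not pass (adjusted p = 0.097 and 0.11). Whether the groupings differ in these lists was not tested. Of the markers of other cells, 1 of 3 tested for type 2 dendritic cells, 2 of 4 for plasmacytoid cells and 0 of 4 for T cells were lower.

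Trib1 was at 33.8, 56.3 and 29.3 CPM in the gated cells and 154, 122.9 and 146 CPM in cells with neither gene, without overlap (-1.99 ± 0.20, adjusted p = 9.2e-10). Slfn5 was at 103, 28.1 and 36.2 against 307, 413 and 317 CPM (-2.53 ± 0.20, adjusted p = 6e-12, and -3.45 without mouse 1). Mouse 1 was again the highest for Slfn5, but here its groups were also apart. Mxd3 was at 53.4, 70.3 and 63.8 CPM in the gated cells and listed at 0 in the others in all 3 mice.

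The same contrast was set against dividing and non-dividing CD8 T cells of the same library (subclusters 8 and 5 of the cluster marked by Pdcd1), to find where cycling dendritic cells differ from another dividing leukocyte. The CD8 sums held 179, 55 and 93 dividing and 312, 92 and 39 non-dividing cells of mice 1, 2 and 3. The difference of the differences passed for 46 of 9514 genes (0.483%), 38 larger and 8 smaller in dendritic cells, of which 16 and 2 were division genes. That balance held neither without mouse 1 (52 genes, 6 larger and 46 smaller) nor with thinned cells (17 genes, 5 larger and 12 smaller). Mki67 did not pass, with mean levels of 353 and 28.9 CPM in dendritic and 548 and 34.9 CPM in CD8 cells (difference -0.16 ± 0.29, adjusted p = 0.89), nor did Jaml (0.10 ± 0.20, adjusted p = 0.89).

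Cenpa, the histone variant of centromeres, had the smallest adjusted p of these genes and was chosen after its values were seen. It was at 325 ± 42.1 CPM in cycling and 25.2 ± 5.36 CPM in resting dendritic cells, and at 430 ± 16.3 and 195 ± 30.5 CPM in dividing and non-dividing CD8 cells (SD, n = 3). The dividing cells were thus similar and the other CD8 cells higher, and the log2 differences of 3.65 ± 0.16 and 1.13 ± 0.12 differed by 2.59 ± 0.21 (adjusted p = 1.1e-05). Ccnb1 (cyclin B1), chosen after its values were seen, was at 96.7 ± 22.5 and 1.21 ± 1.31 CPM in dendritic and 98.4 ± 13.8 and 11.9 ± 1.60 CPM in CD8 cells, a difference of 2.88 ± 0.43 (adjusted p = 0.0062). Itgb7, the integrin chain that pairs with CD103, was at 258 ± 44.5 and 250 ± 22.97 CPM in dendritic cells but 80.8 ± 43.4 and 14.5 ± 1.68 CPM in CD8 cells (-2.04 ± 0.37, adjusted p = 0.021). The count rested on single mice: 2 genes passed without mouse 2 and 10 without mouse 3. Of 12 genes followed across alternatives, Cenpa alone still passed without mouse 2.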

How the data were processed

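Per the submitters' processing notes, the authors used Cell Ranger 3.1.0, Seurat 3.1.5 and the mm10 build. The deposited table holds UMI counts per gene and cell without normalization, and the authors' deposited annotation gives hashtag, cluster, subcluster and the percent of mitochondrial UMIs per cell. The hashtags were taken as the 3 mice, from their names and the design text (n = 3). How doublets were treated is not given in the sources used here, and no caller was run. All cells came from 1 library, and no cell barcode was repeated in it.

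Counts were summed per mouse and subcluster for sums of at least 10 cells. Tests used edgeR 4.0.16 in R 4.3.3 (TMM, filterByExpr, quasi-likelihood, mouse as a block, Benjamini-Hochberg over all genes, threshold 0.05). DESeq2 1.42.0 was an alternative. CPM are counts per 1000000 UMIs of a sum. Per-cell values used cells thinned to 18712 UMIs (seed 17). The same mouse gave both sides of each pair, so mice pair the sums. The scripts were tested on simulated data.

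The members and gene lists were chosen with earlier results of these data known. Genes named are, of each list, up to 4 with the smallest p and at least 30 CPM. Also named are 10 outside the division lists per direction by size (5 for the other 2 fits), and a fixed set. Mcm2, Mcm5, Mcm6, Cenpa, Ccnb1 and Kif23 were added after their values were seen. A robust fit was run first and then set back to the default. It is among the alternatives.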

Additional observations from a re-analysis of the deposited data

Results flagged for a closer look

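The test of the difference between the cycling contrast of dendritic cells and the dividing contrast of CD8 T cells picked out 46 genes, of which 12 are followed here. Larger in dendritic cells, on the log2 scale, were Ccnb1 (2.88), Lockd (2.80), Cenpa (2.59), Mns1 (2.04), Tagap (1.80), Bora (1.76) and Acot9 (1.40). Smaller were Itgb7 (-2.04), the histone gene Hist3h2a (-1.83), the cytokinesis kinesin Kif23 (-1.45), the Fc receptor chain Fcer1g (-1.39) and the interferon gamma receptor chain Ifngr1 (-1.12). Cenpa, Ccnb1 and Kif23 are division genes added after their values were seen. Fcer1g was at 200 ± 18.6 CPM in cycling and 351 ± 48.7 CPM in resting dendritic cells (SD, n = 3), and at 160 ± 16.8 and 95.2 ± 42.9 CPM in dividing and non-dividing CD8 cells. Ifngr1 was at 130 ± 41.4 and 201 ± 46.9 CPM in dendritic and 319 ± 50.2 and 210 ± 31.1 CPM in CD8 cells, so these 2 were lower in dividing dendritic cells and higher in dividing CD8 cells. The part of transcripts from other cells in the CD8 level of the Fc receptor chain was not tested. With each of the mice left out in turn, 7, 1 and 3 of the 12 genes passed, and 5 did with thinned cells. None changed sign in those settings.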

How the results depend on the processing

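The count of 1304 genes between subclusters was within 1.5 times of that with other size factors, thinning or no mouse block (1237 genes). It was 636 in DESeq2 (525 higher, 111 lower), 714 at a threshold of 0.01 (550 and 164), 772 without cells of mixed lineage (553 and 219, from mice 1 and 3, since mouse 2 kept 9 cycling cells) and 811 to 995 with a mouse left out (811 without mouse 2). The robust fit, which was run first and then set back to the default, gave 1432. Chosen after seeing the data, thinned cells without the replicating cells of subcluster 6 gave 1202. The gate's 1054 genes were 282 in DESeq2 and 705 to 920 with a mouse left out. The 46 genes that differed from CD8 cells were 31 with RLE size factors, 17 with thinned cells (5 larger, 12 smaller), and 2 to 52 with a mouse left out (10 without mouse 3). Without mouse 1 the 52 were 6 larger and 46 smaller, against 38 and 8 with all mice.

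Of 98 named genes that passed, 71, 55 and 75 did so without mouse 1, 2 and 3, 59 in DESeq2, 77 without the block and 87 with thinned cells. With subcluster 11 of any cluster, which brings in 44 cells of the Ifitm1 cluster, the sign turned for Cd209a (2.46), Mgl2 (2.08), Bcl2a1b (0.39), Ccl5 (0.12), Ctss (0.024), Psmb9 (-0.049) and Batf3 (-0.45). Without cells of mixed lineage it turned for Ccl4 (0.18). The cause was not tested. With 18 cycling cells in mouse 2, genes of a few UMIs per sum could not be placed.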
